A study of Mus musculus with 2 samples.

Results

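Cadherins and protocadherins were read gene by gene in single cells of the mouse habenula. All symbols of the deposited gene list that are Cdh followed by a digit or that start with Pcdh were taken, which gave 93 genes of 28692. Single cells came from habenula punches of adult male C57BL/6 mice aged 50 to 55 days, in 2 droplet libraries, 1 for each group. Mice of the foot shock group had been handled for 5 min per day over 7 days and habituated to the shock chamber for 10 min per day over 7 days. On the day of the experiment they received 30 shocks of 0.3 mA and 1 s within 60 min, and tissue was taken straight afterwards. Control mice were handled in the same way and came directly from the home cage, so shock, chamber and habituation cannot be told apart. In each group the punches of 4 mice were pooled before digestion with pronase, and the buffers of both groups held blockers of transcription, translation and neuronal firing. No group has a second library, so no test was made between groups and every interval below covers counting error only.

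Cadherins are calcium-dependent adhesion molecules whose extracellular repeats bind the same or a related cadherin on a neighbouring cell. Classical cadherins of type I and type II are anchored to actin through catenins. The non-clustered protocadherins of the delta-1 and delta-2 groups have other cytoplasmic tails, some of which recruit the WAVE regulatory complex of actin assembly. The clustered protocadherins (alpha, beta and gamma) are encoded in tandem arrays from which each neuron uses a limited choice of variable exons, and they are known for giving neurons of one type different surfaces. In brain nuclei, cadherins are known for combinations that differ between neighbouring cell groups and that take part in sorting, axon growth and synapse matching.

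The foot shock library held 22189951 unique molecular identifiers (UMIs) and the control library 23095501. After filters, 4760 foot shock cells and 4887 control cells were kept, and 32 cell barcodes of the kept cells were found in both libraries. Cells were clustered without any member among the clustering features and named from marker genes as medial habenula (MHb)-like neurons (1615 foot shock and 1210 control cells), lateral habenula (LHb)-like neurons (755 and 796) and other classes. Levels are CPM, the UMIs of a gene for every 1e+06 UMIs of a class in 1 library. The libraries count the 3′ end of transcripts, so that a level is not divided by gene length. RNA outside cells was read from barcodes with 10 to 100 UMIs in the same library and is called free RNA. The foot shock library also held 503 keratin epithelial-like cells, a class with 0 control cells. Its 45 fibroblast-like and 15 macrophage-like cells likewise had 0 control cells beside them. A cluster with markers of both, led by Igf2, Mrc1 and Dcn, was left out and held 8 foot shock and 29 control cells. The 3 subclusters of MHb-like and LHb-like neurons with the fewest UMIs per cell, led by Pim1, Ascl4 and Pam, held 448 foot shock and 329 control cells. Counts were also taken without them.

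The kept cells held 18265 member UMIs in the foot shock library and 25543 in the control library. Of the 93 members, 48 had at least 20 UMIs in each library and 5 had no UMI in either. The delta-2 protocadherins gave the most, 6779 UMIs in foot shock and 9699 in control over 5 genes, followed by the 4 delta-1 protocadherins with 4299 and 6366. The 13 type II cadherins gave 2616 UMIs in foot shock and 3658 in control, and the 5 type I cadherins 1719 and 2092. The 58 clustered genes gave 42 UMIs in foot shock and 64 in control for alpha, 1119 and 1493 for beta, and 482 and 597 for gamma. Summed over members, precursors of oligodendrocytes had the highest levels. Committed precursor-like cells stood at 3182 CPM in foot shock and 3190.4 CPM in control, oligodendrocyte precursor-like cells at 2827 and 3371 CPM. LHb-like neurons stood at 2089 CPM in foot shock and 2189 CPM in control, against 784 and 846 CPM in MHb-like neurons and 531 and 638 CPM in free RNA. All 29 members with at least 20 UMIs per library in LHb-like neurons lay above free RNA in both libraries, and 17 of the 23 such members in MHb-like neurons did. The same count was not taken over all genes, so it is not read as particular to the members.

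Promoters of 3 genes are shown because these genes differed between the medial and the lateral side of the habenula: Pcdh10 and Pcdh17 were higher in LHb-like neurons and Pcdh20, which lies 3.93 Mb from Pcdh17 on chromosome 14, was higher in MHb-like neurons. Each is the 250 bases before the RefSeq start in GRCm38.p6, 5′ to 3′ on the gene's own strand, with CG dinucleotides in capitals. The regions are chr3:45378148-45378397 on the plus strand for Pcdh10, chr14:84443313-84443562 on the plus strand for Pcdh17 and chr14:88471397-88471646 on the minus strand for Pcdh20.
Pcdh10: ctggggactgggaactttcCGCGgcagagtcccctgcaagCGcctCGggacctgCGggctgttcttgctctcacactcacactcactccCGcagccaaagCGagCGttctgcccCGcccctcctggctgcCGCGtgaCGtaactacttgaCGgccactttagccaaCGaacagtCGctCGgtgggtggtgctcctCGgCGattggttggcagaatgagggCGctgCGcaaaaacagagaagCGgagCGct
Pcdh17: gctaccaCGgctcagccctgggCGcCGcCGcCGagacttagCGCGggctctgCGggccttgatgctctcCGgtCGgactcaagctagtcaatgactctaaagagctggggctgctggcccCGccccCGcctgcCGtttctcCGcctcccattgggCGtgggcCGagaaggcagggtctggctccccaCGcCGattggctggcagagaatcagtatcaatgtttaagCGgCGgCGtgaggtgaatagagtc
Pcdh20: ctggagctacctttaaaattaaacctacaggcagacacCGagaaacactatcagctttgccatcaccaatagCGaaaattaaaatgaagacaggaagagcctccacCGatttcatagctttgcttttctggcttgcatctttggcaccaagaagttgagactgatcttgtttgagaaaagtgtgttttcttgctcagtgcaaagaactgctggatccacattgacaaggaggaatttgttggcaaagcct
The Pcdh10 promoter holds 22 CG, a count that 14.8% of the 32851 RefSeq promoters of the same length reach or exceed, and the Pcdh17 promoter holds 21, reached or exceeded by 16.3%. The Pcdh20 promoter holds 3 CG, against a median of 6, and 37.8% of promoters hold as many or fewer. Searched on either strand, none of the 3 windows holds the TATA box core TATAAA, found in 12.4% of all promoters of this length. None holds the homeodomain core TAATTA, found in 4.84% of them. The E-box CAGGTG is likewise in none of the 3 windows and in 17.2% of all promoters. The absence says only that these letters are not in the windows.

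Over the 10 classes to which each library gave 50 cells or more, 14 members had 20 UMIs or more in their highest class in both libraries, and for 11 of them the highest class was the same in both. Of these, 3 led the next class by 2-fold or more in both libraries: Cdh3 in MHb-like neurons, Pcdh15 in oligodendrocyte precursor-like cells and Pcdh7 in committed precursor-like cells. The heatmap of levels by class shows these 3 and the broadly found members. The counts of members by highest class have no share over all genes beside them and are not read as particular to the members.

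**Figure D1:**
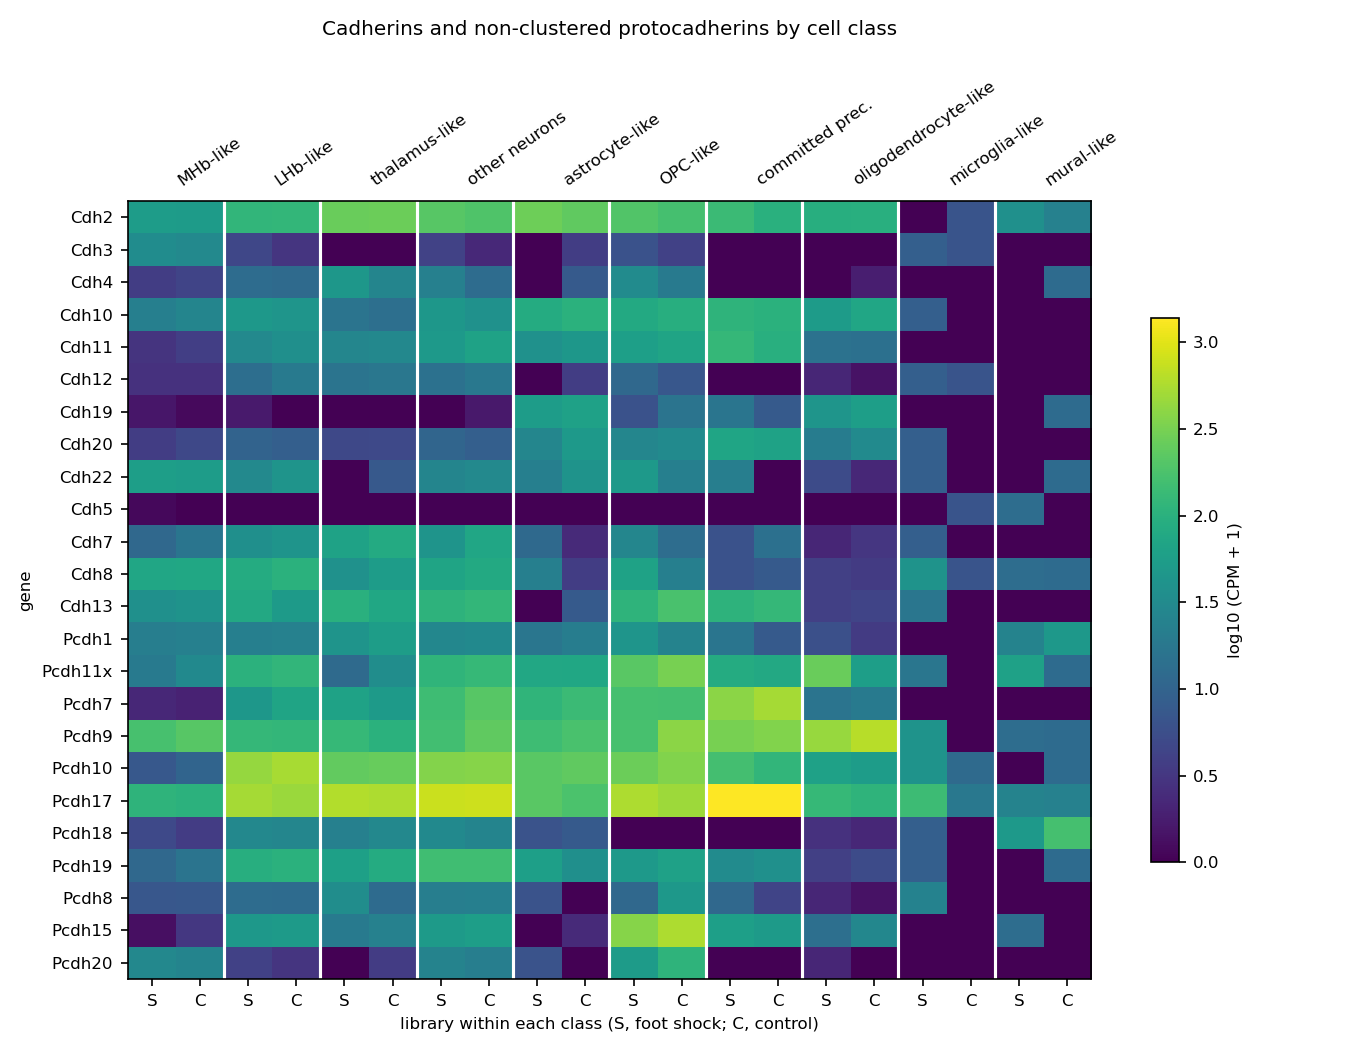
Heatmap of log10 (CPM + 1) of 24 cadherins and non-clustered protocadherins with at least 100 UMIs (rows) in 10 cell classes, each with the foot shock library (S) left of the control library (C). Pcdh17 is brightest in committed precursor-like cells (1380.3 CPM in foot shock and 1374 CPM in control), Pcdh15 in oligodendrocyte precursor-like cells, and Pcdh10 is dark in MHb-like neurons and brighter in the other neuron classes.

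In MHb-like neurons the members with the most UMIs were Pcdh9, Pcdh17, Cdh8, Cdh22 and Cdh2. Pcdh9, a delta-1 protocadherin, stood at 169 CPM (95% interval 158 to 180.2) in foot shock and 209 CPM (196 to 222) in control, above 48.0 and 48.8 CPM in free RNA. Pcdh17, a delta-2 protocadherin of axons and presynaptic sites, stood at 111 CPM in foot shock and 104 CPM in control. These levels lay below free RNA, at 172 CPM in foot shock and 209.9 CPM in control, so a Pcdh17 UMI in an MHb-like neuron is not by itself a sign of expression. Cdh8, a type II cadherin of neurons, stood at 71.8 CPM in foot shock and 72.4 CPM in control. Cdh22, another type II cadherin, stood at 56.8 CPM in foot shock and 53.7 CPM in control, the highest of the 10 classes in both libraries. Cdh2, the N-cadherin of neuronal junctions, stood at 53.6 CPM in foot shock and 51.7 CPM in control, lower than in every other neuron class.

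In LHb-like neurons Pcdh17 and Pcdh10 were the leading members, followed by Pcdh9, Cdh2 and Pcdh11x. Pcdh17 stood at 527 CPM (502 to 554) in foot shock and 469 CPM (447 to 491) in control. Pcdh10, a delta-2 protocadherin whose tail binds the WAVE complex, stood at 438 CPM (415 to 463) in foot shock and 528 CPM (506 to 551) in control, higher than in any other of the 10 classes. The last exon of Pcdh10 overlaps 1700027H10Rik on the opposite strand, and the sources used here do not give whether reads were counted by strand. In LHb-like neurons Pcdh11x, an X-linked delta-1 protocadherin, stood at 104 CPM in foot shock and 116 CPM in control and Cdh2 at 117 CPM in foot shock and 119 CPM in control. Thalamus-like neurons shared the 2 leading delta-2 genes, with Pcdh17 at 607 CPM in foot shock and 567 CPM in control and Pcdh10 at 241 and 254 CPM. Their Cdh2 level, 260.3 CPM in foot shock and 269 CPM in control, was above that of both habenula classes. The neurons low in the habenula factor Pou4f1 were led by Pcdh17 (780.2 CPM in foot shock and 799 CPM in control) and Pcdh10 (357 and 367 CPM). They also had the highest Pcdh19 of the 10 classes, 148 CPM in foot shock and 149 CPM in control. Pcdh19 is a delta-2 protocadherin encoded on the X chromosome whose mutation causes epilepsy in humans.

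Pcdh17 and Pcdh15 led in oligodendrocyte precursor-like cells, Pcdh17 in committed precursor-like cells and Pcdh9 in oligodendrocyte-like cells. Oligodendrocyte precursor-like cells had 574 CPM (471 to 692) of Pcdh17 in foot shock and 478 CPM (406 to 559) in control. They had 374 CPM (292 to 471) of Pcdh15 in foot shock and 572 CPM (493 to 661) in control, against 13.1 and 27.0 CPM in oligodendrocyte-like cells. Pcdh15 is known as the partner of Cdh23 in the tip links of hair cells, and Cdh23 itself had 12 UMIs in all foot shock cells and 9 in all control cells. Committed precursor-like cells had 1380.3 CPM (1218 to 1558) of Pcdh17 in foot shock and 1374 CPM (1244 to 1514) in control, the highest level of any member in these classes. Pcdh7, a delta-1 protocadherin, stood at 389.8 CPM in foot shock and 527 CPM in control in the same cells. Oligodendrocyte-like cells were low in both, with Pcdh17 at 125 CPM in foot shock and 111 CPM in control and Pcdh7 at 14.9 CPM in foot shock and 18.6 CPM in control, and Pcdh17 there lay below free RNA. Their leading member was Pcdh9, at 446 CPM (415 to 480) in foot shock and 629.6 CPM (598 to 662) in control. A Pcdh9 UMI was found in 57.4% of 827 foot shock and 69.7% of 1080 control oligodendrocyte-like cells, whose median depths were 1845 and 2067 UMIs. In microglia-like cells, set beside them as a lineage without oligodendrocyte genes, the share was 5.71% at a median of 1383 UMIs in foot shock and 0 of 115 cells at 1485 UMIs in control.

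Astrocyte-like cells, 142 in foot shock and 576 in control, were led by Cdh2, at 278 CPM (208 to 365) in foot shock and 234 CPM (201 to 272) in control. Pcdh10 followed at 214 CPM in foot shock and 237 CPM in control, Pcdh17 at 214 CPM in foot shock and 175 CPM in control, Pcdh9 at 145 CPM in foot shock and 174 CPM in control and Pcdh7 at 112 CPM in foot shock and 138 CPM in control. The Pcdh17 level lay below free RNA in control (209.9 CPM), and in foot shock its interval (153 to 292) held the free RNA level of 172 CPM. Cdh19, a type II cadherin known from Schwann cells, was found in 2 glial classes, at 53.5 CPM in foot shock and 61.7 CPM in control in astrocyte-like cells and at 42.4 CPM in foot shock and 56.6 CPM in control in oligodendrocyte-like cells. Free RNA held 4.41 CPM of it in foot shock and 2.77 CPM in control, and MHb-like neurons 0.536 and 0.200 CPM. Cdh7, the next member on chromosome 1 at a distance of 748 kb, had the opposite distribution, with 35.5 CPM in foot shock and 40.9 CPM in control in LHb-like neurons and 2 UMIs in foot shock and 5 UMIs in control in all oligodendrocyte-like cells.

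Vascular, ventricular and epithelial cells held members of their own, of which Cdh5, Cdh26 and Cdh1 were at or near 0 in habenula neurons. Cdh5, the VE-cadherin of endothelial junctions, stood at 383 CPM (277 to 515) in 47 foot shock and 351 CPM (264 to 457) in 64 control endothelial-like cells. It was found there in 55.3% and 48.4% of cells, and LHb-like neurons had no Cdh5 UMI in either library. Cdh26 was read in ependymal-like cells at 119.8 CPM in foot shock and 187 CPM in control, from 22 and 8 UMIs, and free RNA held 0.259 and 0.277 CPM. Pcdh18, a delta-2 protocadherin, stood at 48.7 CPM in 61 foot shock and 161 CPM in 56 control mural-like cells, from 4 and 14 UMIs. In the keratin epithelial-like cells of the foot shock library Cdh1, the E-cadherin of epithelia, stood at 51.9 CPM (40.0 to 66.3), Pcdh18 at 28.4 CPM (19.8 to 39.5) from 35 UMIs and Cdh3, the P-cadherin, at 26.8 CPM from 33 UMIs. Cdh1 had no UMI in any kept control cell, although Cdh3, its neighbour 46.1 kb away on chromosome 8, was found in neurons of both libraries. Microglia-like cells held no member at 20 UMIs in each library.

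The comparison of MHb-like with LHb-like neurons asks which adhesion genes separate the 2 parts of the nucleus. Of 49 members with at least 20 UMIs over both libraries in these classes, 18 differed by 2-fold or more in the same direction in both libraries, 16 lower and 2 higher in MHb-like neurons. Over all 12807 genes so measured, 15.6% passed the same rule, 10.2% lower and 5.40% higher in MHb-like neurons. Each of the 18 also had an interval without 1 in both libraries, which 13.9% of all genes had. The median log2 ratio of the members was -0.98 in foot shock and -0.84 in control, beside -0.14 and -0.15 over all genes. Classes were made from these same cells, so the ratios are descriptions and carry no test. The plot of MHb-like over LHb-like ratios gives both libraries side by side.

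**Figure D2:**
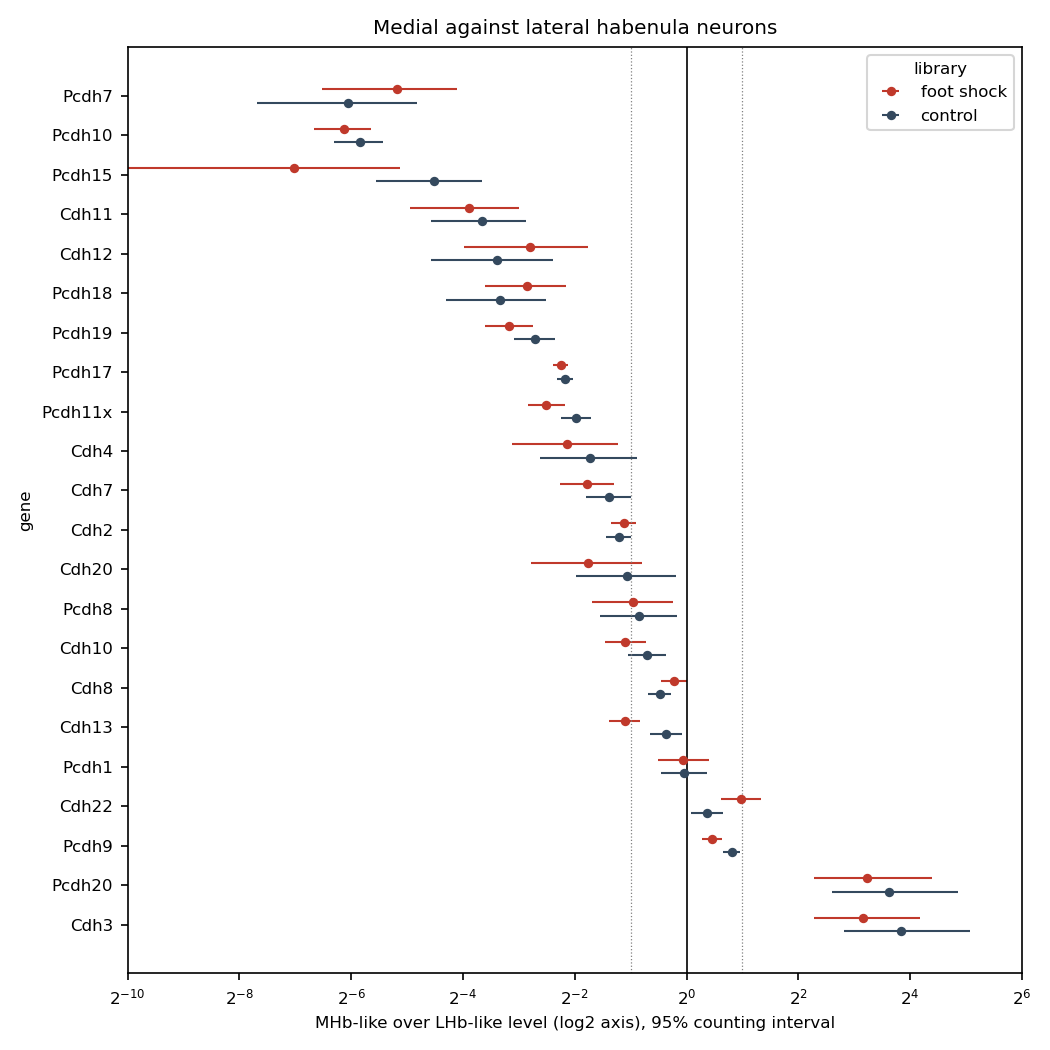
Ratio of the level in MHb-like neurons to that in LHb-like neurons (log2 axis) for the cadherins and non-clustered protocadherins with at least 100 UMIs, foot shock in red above control in dark blue, with 95% counting intervals and dotted lines at 2-fold. The foot shock interval of Pcdh15 runs off the axis on the left. Pcdh10, Pcdh7 and Pcdh15 lie farthest to the left, and Cdh3 and Pcdh20 lie alone on the right beyond 2-fold in both libraries.

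The delta-2 protocadherins had the lowest median log2 ratio of the groups, -2.83 in foot shock and -2.71 in control. Pcdh10 stood at 6.26 CPM in MHb-like and 438 CPM in LHb-like neurons of foot shock mice, a ratio of 0.014 (0.0099 to 0.020). In the control library it stood at 9.18 CPM in MHb-like and 528 CPM in LHb-like neurons, a ratio of 0.017 (0.013 to 0.023). The MHb-like levels lay below those of free RNA, at 66.6 CPM in foot shock and 86.2 CPM in control. With each cell thinned to 1000 UMIs, a Pcdh10 UMI was left in 0.582% of MHb-like and 32.7% of LHb-like cells in foot shock, and in 0.967% of MHb-like and 39.0% of LHb-like cells in control. Without thinning the shares were 2.04% and 60.1% in foot shock at median depths of 3471 and 3860 UMIs, and 3.64% and 73.9% in control at 4217 and 4760 UMIs. Pcdh17 was 0.210-fold (0.191 to 0.231) in foot shock and 0.221-fold (0.200 to 0.244) in control. Pcdh19 stood at 10.4 CPM in MHb-like and 93.2 CPM in LHb-like neurons in foot shock, a ratio of 0.111, and at 15.2 and 99.7 CPM in control, a ratio of 0.152. Pcdh18 had ratios of 0.139 in foot shock and 0.0985 in control. Pcdh8, the delta-2 gene known as the activity-induced arcadlin, did not reach 2-fold in both libraries, with ratios of 0.514 in foot shock and 0.555 in control.

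Among delta-1 and other non-clustered protocadherins, Pcdh7 stood at 1.25 CPM in MHb-like and 45.6 CPM in LHb-like neurons in foot shock, and at 0.998 CPM in MHb-like and 66.5 CPM in LHb-like neurons in control. The ratios were 0.0274 (0.0108 to 0.0581) in foot shock and 0.0150 (0.00483 to 0.0355) in control. Pcdh15 had 2 UMIs in MHb-like and 137 UMIs in LHb-like neurons in foot shock, and 11 and 198 UMIs in control. Pcdh11x had ratios of 0.176 in foot shock and 0.254 in control. Pcdh9 was higher in MHb-like neurons without reaching 2-fold, with ratios of 1.37 (1.22 to 1.55) in foot shock and 1.75 (1.56 to 1.95) in control. Pcdh1, the remaining delta-1 gene, stood at 21.1 CPM in MHb-like and 21.9 CPM in LHb-like neurons in foot shock and at 22.5 and 23.3 CPM in control, with intervals of the ratio from 0.704 to 1.32 and from 0.729 to 1.29.

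Pcdh20 and Cdh3 ran the other way. Pcdh20 stood at 28.6 CPM in MHb-like and 3.04 CPM in LHb-like neurons in foot shock, a ratio of 9.41 (4.84 to 21.0). In control it stood at 25.1 CPM in MHb-like and 2.05 CPM in LHb-like neurons, a ratio of 12.3 (6.05 to 29.1). Cdh3 stood at 33.1 CPM in MHb-like and 3.71 CPM in LHb-like neurons in foot shock, a ratio of 8.90 (4.86 to 18.1), and at 29.3 and 2.05 CPM in control, a ratio of 14.3 (7.09 to 33.8). Both genes had 8 UMIs in LHb-like neurons of control mice. Of the Cdh3 UMIs in LHb-like neurons, 9 of 11 in foot shock and 6 of 8 in control came from the Sst/Mctp1 subcluster. That subcluster held 3 of the 7 MHb markers beside 4 of the 6 LHb markers. Every other LHb-like subcluster also held 3 MHb markers, beside 4 or 5 LHb markers. Thinned to 1000 UMIs, 3.52% of MHb-like and 0.354% of LHb-like cells in foot shock held a Cdh3 UMI, and 2.96% of MHb-like and 0.167% of LHb-like cells in control.

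The classical cadherins that differed were lower in MHb-like neurons apart from Cdh3. Cdh2 had ratios of 0.459 (0.392 to 0.537) in foot shock and 0.433 (0.370 to 0.505) in control, and its retinal relative Cdh4 0.227 and 0.302. Of the type II cadherins 6 were lower in both libraries: Cdh7, Cdh9, Cdh11, Cdh12, Cdh18 and Cdh20. Cdh11, known from bone and limbic brain, had ratios of 0.0669 in foot shock and 0.0786 in control, Cdh12 0.143 and 0.0949, Cdh7 0.292 and 0.381 and Cdh20 0.294 and 0.478. Cdh9, known from hippocampal mossy fibre synapses, had 0 UMIs in MHb-like and 19 in LHb-like neurons in foot shock, and 1 and 33 UMIs in control. With a limit of 3 counts, the 0 in MHb-like neurons allows up to 0.536 CPM, and its exact interval ends at 0.659 CPM, against 6.42 CPM in LHb-like neurons. Cdh18 had 0 UMIs in MHb-like and 14 in LHb-like neurons in foot shock, and 2 and 21 in control. Cdh9, Cdh10, Cdh12 and Cdh18 lie in a row on chromosome 15, with gaps of 1.96 Mb, 1.44 Mb and 959 kb, and 3 of the 4 passed the rule. Cdh10 was lower in MHb-like neurons with ratios of 0.467 in foot shock and 0.616 in control, past 2-fold in foot shock alone. Cdh8 (0.858 in foot shock and 0.717 in control), Cdh13 (0.465 in foot shock and 0.777 in control) and Cdh22 (1.96 in foot shock and 1.29 in control) also did not pass in both libraries. The remaining gene that passed was the beta protocadherin Pcdhb5, with ratios of 0.302 in foot shock and 0.446 in control.

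Within each class, the pair of subclusters with the highest and lowest level of a member was chosen in the control library and read in the foot shock library, which had no part in the choice. Members with at least 100 UMIs in the class were read. In MHb-like neurons 11 of 15 members were again 2-fold or more apart, beside 26.2% of 8828 genes chosen and read in the same way. In LHb-like neurons 18 of 20 were, beside 30.3% of 8139 genes. Members and all genes were counted by the ratio alone, whatever its interval. Of the members counted, Cdh7 in MHb-like neurons had 1 inside its foot shock interval (2.04, 0.670 to 7.41). So did Pcdh1 (2.74, 0.885 to 11.3), Pcdhb22 (2.64, 0.952 to 8.37) and ENSMUSG00000023036 (2.30, 0.167 to 31.7) in LHb-like neurons. The subcluster highest in control was also the highest in foot shock for 8 of the 15 members in MHb-like and 14 of the 20 in LHb-like neurons. Counts of members by their highest subcluster, here and below, have no share over all genes beside them. They are not read as particular to the members. Subclusters are called here by 2 leading genes that are no members. Members were kept out of the clustering, although clustered cells can separate along genes that vary with a member.

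**Figure D3:**
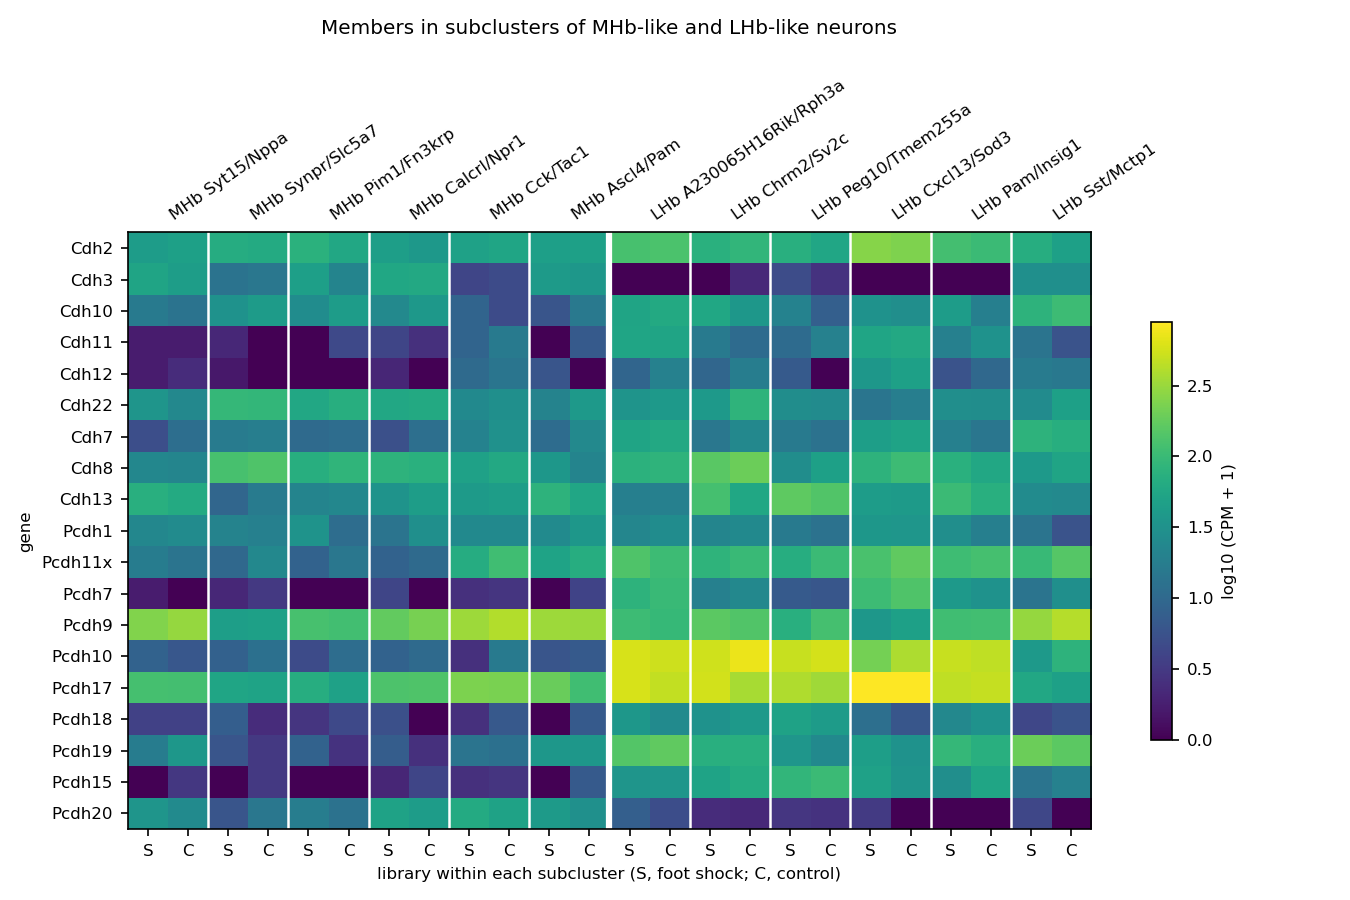
Heatmap of log10 (CPM + 1) of 19 members in 6 MHb-like and 6 LHb-like subclusters, each with the foot shock library (S) left of the control library (C). Pcdh10 and Pcdh17 are bright across the LHb-like subclusters, less so in Sst/Mctp1, and Pcdh9 is bright in Cck/Tac1, Ascl4/Pam and Syt15/Nppa of the MHb-like and in Sst/Mctp1 of the LHb-like neurons.

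Among MHb-like subclusters, the Cck/Tac1 cells, which carry 2 peptide genes, were highest in control for 5 members, Pcdh9, Pcdh11x, Pcdh17, Pcdh20 and Cdh7. Pcdh9 stood at 331 CPM there and at 44.3 CPM in the Synpr/Slc5a7 cells of the foot shock library, a ratio of 7.47 (5.74 to 9.79), with 404 and 45.9 CPM in control. Ascl4/Pam cells were close to the Cck/Tac1 cells, at 329.8 CPM in foot shock and 323 CPM in control, and Syt15/Nppa cells had 247 CPM in foot shock and 303 CPM in control. Slc5a7 is the choline transporter of cholinergic neurons. Pcdh11x stood at 65.2 CPM in Cck/Tac1 and 7.43 CPM in Calcrl/Npr1 cells in foot shock, a ratio of 8.77 (3.89 to 23.2). Pcdh17 stood at 234 CPM in Cck/Tac1 and 67.2 CPM in Pim1/Fn3krp cells, a ratio of 3.48, and Cck/Tac1 was the 1 MHb-like subcluster whose Pcdh17 level exceeded free RNA in both libraries, although the control interval (188 to 271) reached below it. Pcdh20 was 3.69-fold apart between the same 2 subclusters, at 62.0 CPM in Cck/Tac1 and 16.8 CPM in Pim1/Fn3krp cells of foot shock mice.

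Other members marked other MHb-like subclusters. Cdh3 stood at 56.3 CPM in Calcrl/Npr1 and 3.18 CPM in Cck/Tac1 cells of the foot shock library, from 53 and 2 UMIs, with 58.5 and 3.75 CPM in control. Cdh8 stood at 122 CPM in Synpr/Slc5a7 and 34.98 CPM in Ascl4/Pam cells in foot shock, and Cdh22 at 90.2 CPM in Synpr/Slc5a7 and 33.8 CPM in Syt15/Nppa cells. The cholinergic Synpr/Slc5a7 cells were thus highest in control for 2 type II cadherins and lowest for Pcdh9 and for Cdh13, the T-cadherin that lacks a cytoplasmic tail. Cdh13 stood at 71.6 CPM in Syt15/Nppa and 8.30 CPM in Synpr/Slc5a7 cells in foot shock, a ratio of 8.63 (5.0016 to 15.96), and at 62.7 and 15.997 CPM in control, a ratio of 3.92. The Synpr/Slc5a7 levels lay close to free RNA, at 10.6 CPM in foot shock and 14.97 CPM in control, and in foot shock Ascl4/Pam cells had the highest Cdh13 level of the MHb-like subclusters, 80.0 CPM from 16 UMIs. Cdh2 (ratio 1.499), Pcdhb17 (0.919), Pcdhga12 (0.957) and Pcdh1 (0.788) did not keep a 2-fold difference in the foot shock library.

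Among LHb-like subclusters, the Sst/Mctp1 cells stood apart in several members. Pcdh10 stood at 539 CPM in Chrm2/Sv2c and 38.3 CPM in Sst/Mctp1 cells of the foot shock library, a ratio of 14.1 (7.96 to 27.5), with 735 and 79.9 CPM in control. Pcdh17 stood at 889 CPM in Cxcl13/Sod3 and 57.5 CPM in Sst/Mctp1 cells in foot shock, a ratio of 15.5 (9.67 to 26.4), with 883 and 47.0 CPM in control. Both Sst/Mctp1 levels lay below free RNA. Pcdh9 went the other way, with 303 CPM in Sst/Mctp1 and 35.04 CPM in Cxcl13/Sod3 cells in foot shock, a ratio of 8.65 (5.06 to 15.7), and 418 and 46.6 CPM in control. Cdh7 stood at 79.8 CPM in Sst/Mctp1 and 15.5 CPM in Peg10/Tmem255a cells in foot shock, and Cdh10 at 79.8 CPM in Sst/Mctp1 and 19.4 CPM in Peg10/Tmem255a cells. Sst encodes somatostatin. These cells held markers of both habenula classes, as did every other LHb-like subcluster by the count given above. The part of these markers in the member levels was not tested.

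The Cxcl13/Sod3 cells were the highest in control for 9 of the 20 members, among them Pcdh17, Pcdh7, Cdh2, Cdh11 and Cdh12. Pcdh7 stood at 105 CPM in Cxcl13/Sod3 and 5.81 CPM in Peg10/Tmem255a cells of the foot shock library, a ratio of 18.1 (5.83 to 90.8). Cdh2 stood at 261 CPM in Cxcl13/Sod3 and 67.0 CPM in Sst/Mctp1 cells, a ratio of 3.89 (2.43 to 6.51). The Peg10/Tmem255a cells were the highest in control for Cdh13, Pcdh15 and Pcdh18. Cdh13 stood at 163 CPM in Peg10/Tmem255a and 17.6 CPM in A230065H16Rik/Rph3a cells in foot shock, a ratio of 9.26 (5.13 to 18.1), and Pcdh15 at 85.3 CPM in Peg10/Tmem255a and 12.8 CPM in Sst/Mctp1 cells. Pcdh19 stood at 143 CPM in A230065H16Rik/Rph3a and 34.9 CPM in Peg10/Tmem255a cells. Cdh8 stood at 156 CPM in Chrm2/Sv2c and 27.1 CPM in Peg10/Tmem255a cells. Pcdh11x (1.55) and Pcdhb17 (0.949) were the 2 members that did not keep a 2-fold difference.

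The clustered protocadherins were low one by one and are given as sums. The 22 beta genes together stood at 73.3 CPM in MHb-like and 135 CPM in LHb-like neurons in foot shock, and at 79.8 and 140.3 CPM in control, against 29.6 and 34.9 CPM in free RNA. Median depths per cell were 3471 UMIs in MHb-like and 3860 UMIs in LHb-like neurons in foot shock and 4217 and 4760 UMIs in control, and a beta UMI was found in 20.2% of MHb-like and 33.9% of LHb-like cells in foot shock and in 26.1% and 43.6% in control. Cells with UMIs of 2 or more different beta genes numbered 54 of 1615 MHb-like and 78 of 755 LHb-like cells in foot shock, and 55 of 1210 and 107 of 796 in control. In oligodendrocyte-like cells the beta sum, 24.5 CPM in foot shock and 22.0 CPM in control, lay below free RNA. The 22 gamma genes stood at 34.1 CPM in MHb-like and 37.8 CPM in LHb-like neurons in foot shock and at 31.5 and 40.9 CPM in control. Their sum was 69.6 CPM (37.0 to 119.0) in foot shock and 93.2 CPM (72.4 to 118) in control in astrocyte-like cells. In oligodendrocyte precursor-like cells it was 115.8 CPM (72.6 to 175) in foot shock and 67.3 CPM (42.2 to 102) in control, and the intervals of these 2 classes overlap in each library. The 14 alpha genes gave 15 UMIs in MHb-like and 8 in LHb-like neurons in foot shock and 19 and 19 in control.

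These sums depend on where reads of the arrays were counted. All 14 alpha genes and the 21 gamma genes found in GENCODE vM21 share their last exon with other members, whereas 2 of the 22 beta genes do. A 3′ tag from a shared last exon cannot be given to 1 gene, so the alpha and gamma levels may leave out most of their transcripts, and levels of alpha, beta and gamma are not compared with each other. The gene with identifier ENSMUSG00000023036 is labelled Pcdhga8 in the files and Pcdhgc4 in vM21, and its level is reported under the identifier.

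Genes that work with cadherins were counted by 2-fold in each library, beside 7.50% of all genes higher and 13.3% lower in MHb-like neurons in foot shock, and 7.78% higher and 13.1% lower in control. Of 12 catenin and junction adaptor genes measured, 0 were higher and 2 lower by 2-fold in MHb-like neurons in foot shock, and 1 higher and 1 lower in control. The alpha-catenin Ctnna1 stood at 9.47 CPM in MHb-like and 22.6 CPM in LHb-like neurons in foot shock (ratio 0.419) and at 7.98 and 24.5 CPM in control (0.325). Plakoglobin, encoded by Jup, stood at 98.7 CPM in MHb-like and 52.3 CPM in LHb-like neurons in foot shock (1.89) and at 88.8 and 40.4 CPM in control (2.20). Free RNA held 91.8 CPM of Jup in foot shock and 82.4 CPM in control, so the MHb-like levels lay near it and the LHb-like levels below it, and the ratio is not read as a difference in expression. Free RNA also held more Ctnna1 than MHb-like neurons, 18.1 CPM in foot shock and 16.9 CPM in control. Of 11 other cadherin superfamily genes, 1 was higher and 1 lower in foot shock, and 3 were higher and 3 lower in control. The giant cadherin Fat3 stood at 201 CPM in MHb-like and 57.4 CPM in LHb-like neurons in foot shock and at 201 and 84.4 CPM in control (2.39), and the synaptic calsyntenin Clstn3 had ratios of 0.451 and 0.418. None of the 9 WAVE complex genes, 6 cleavage genes and 10 regulators of the protocadherin arrays was 2-fold apart in either library. Their extremes in foot shock were Cyfip2 (0.601) and Wasf2 (1.37) of the WAVE complex, Ncstn (0.611) and Aph1a (1.34) of the gamma-secretase that cleaves cadherins, and Setdb1 (0.704) and Smchd1 (1.34) of the regulators.

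The comparison of foot shock with control asks whether any member differed after the session. A member was counted where its ratio passed 1.5-fold with an interval without 1. In oligodendrocyte-like cells 3 of 13 members passed, beside 9.28% of 9096 genes, and in oligodendrocyte precursor-like cells 3 of 12, beside 12.2% of 5080 genes. In LHb-like neurons 3 of 42 passed, beside 4.24%, in MHb-like neurons 3 of 38, beside 3.67%, and in Pou4f1-low neurons 3 of 34, beside 6.75%. No member passed in thalamus-like neurons (0 of 15, beside 4.69%), astrocyte-like cells (0 of 13, beside 7.11%) or committed precursor-like cells (0 of 11, beside 9.96%). With so few genes in each class, these counts are within 2 genes of what the shares over all genes give. The median log2 ratio of members was -0.10 in LHb-like neurons, -0.11 in MHb-like neurons and -0.30 in oligodendrocyte-like cells, beside -0.04, -0.04 and -0.11 over all genes.

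**Figure D4:**
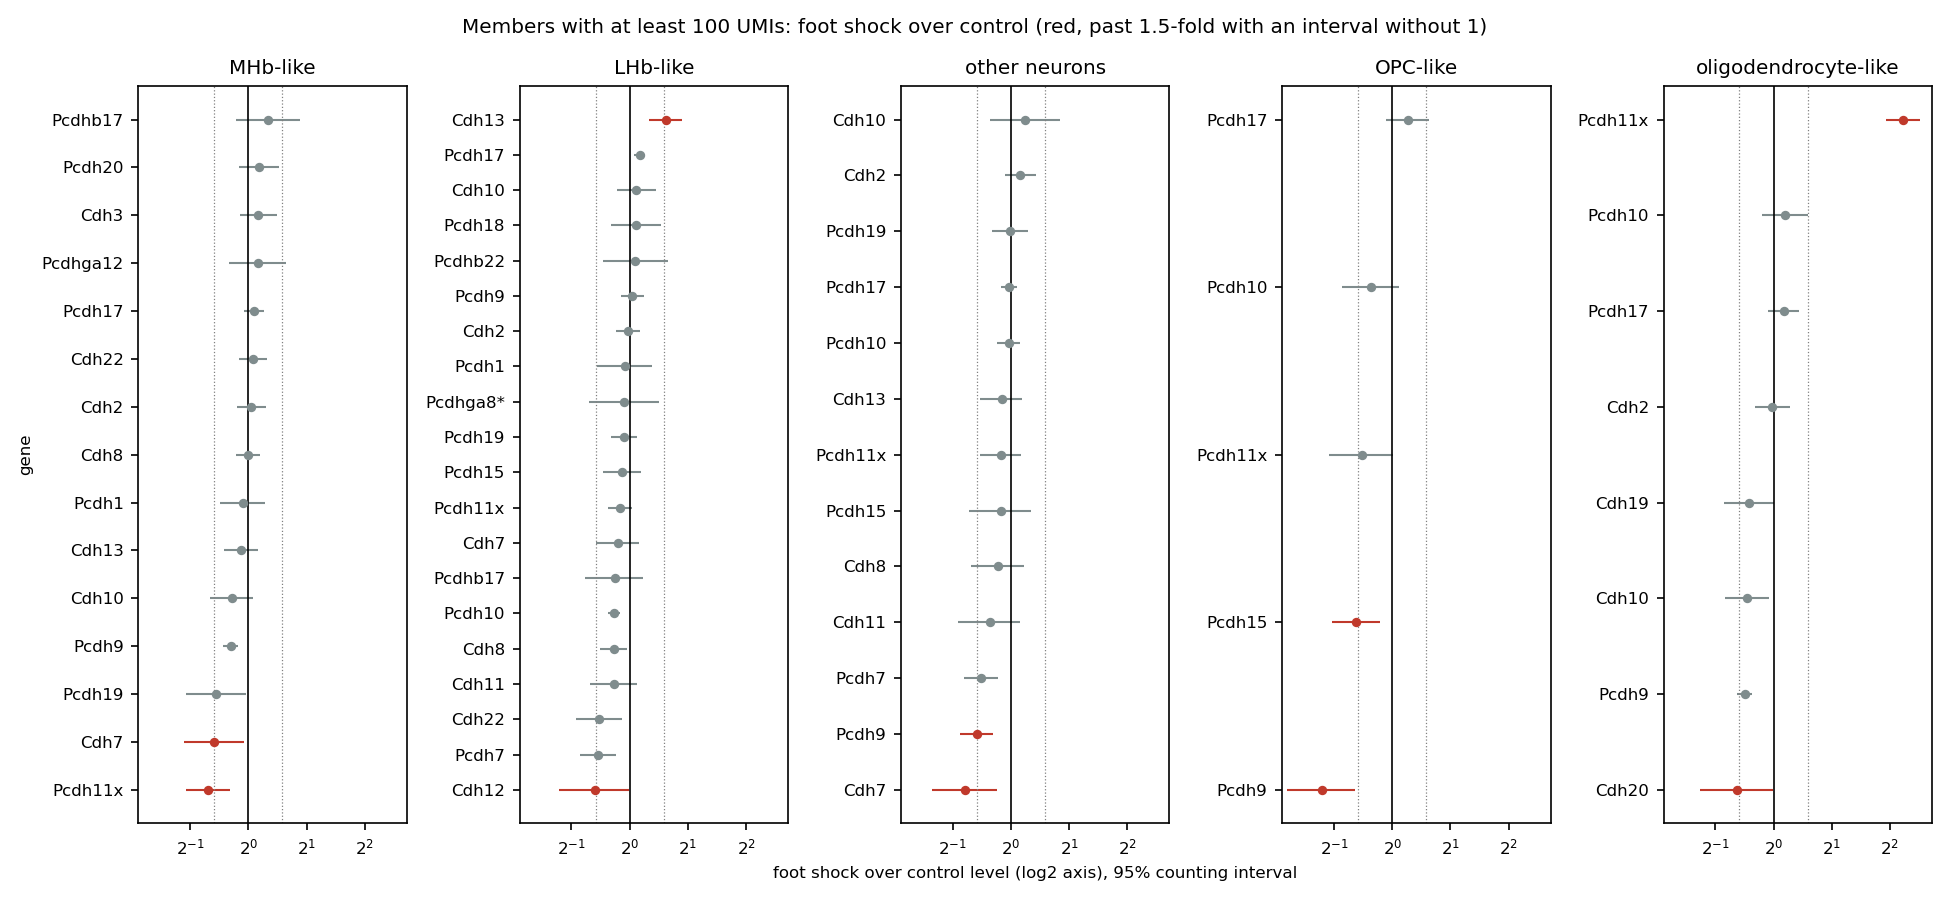
Ratio of the foot shock to the control level (log2 axis, with 95% counting intervals and dotted lines at 1.5-fold) of members with at least 100 UMIs in 5 cell classes. Red points passed 1.5-fold with an interval without 1, and an asterisk marks ENSMUSG00000023036. Pcdh11x in oligodendrocyte-like cells, at 4.66, lies far from every other point.

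Pcdh11x (ENSMUSG00000034755, chrX:120290259-120910619, plus strand) was the member that differed most. Oligodendrocyte-like cells had 266 CPM (242 to 292) in foot shock and 57.0 CPM (47.8 to 67.5) in control, from 445 and 135 UMIs. The ratio was 4.66 (3.84 to 5.69), and 3 of the 4646 genes with at least 100 UMIs in these cells had a higher one. A UMI was found in 254 of 827 foot shock cells (30.7%, 27.6 to 34.0%) and in 125 of 1080 control cells (11.6%, 9.73 to 13.6%). At least 3 UMIs were found in 50 foot shock and 2 control cells, and the 10 cells with the most held 12.1% and 14.8% of the UMIs, so a few cells did not hold most of them. Thinned to 1000 UMIs per cell, the shares were 19.6% and 5.65%. In microglia-like cells a UMI was found in 2.86% of foot shock cells and in 0 of 115 control cells. Free RNA held 19.4 CPM in foot shock and 22.5 CPM in control.

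**Figure D5:**
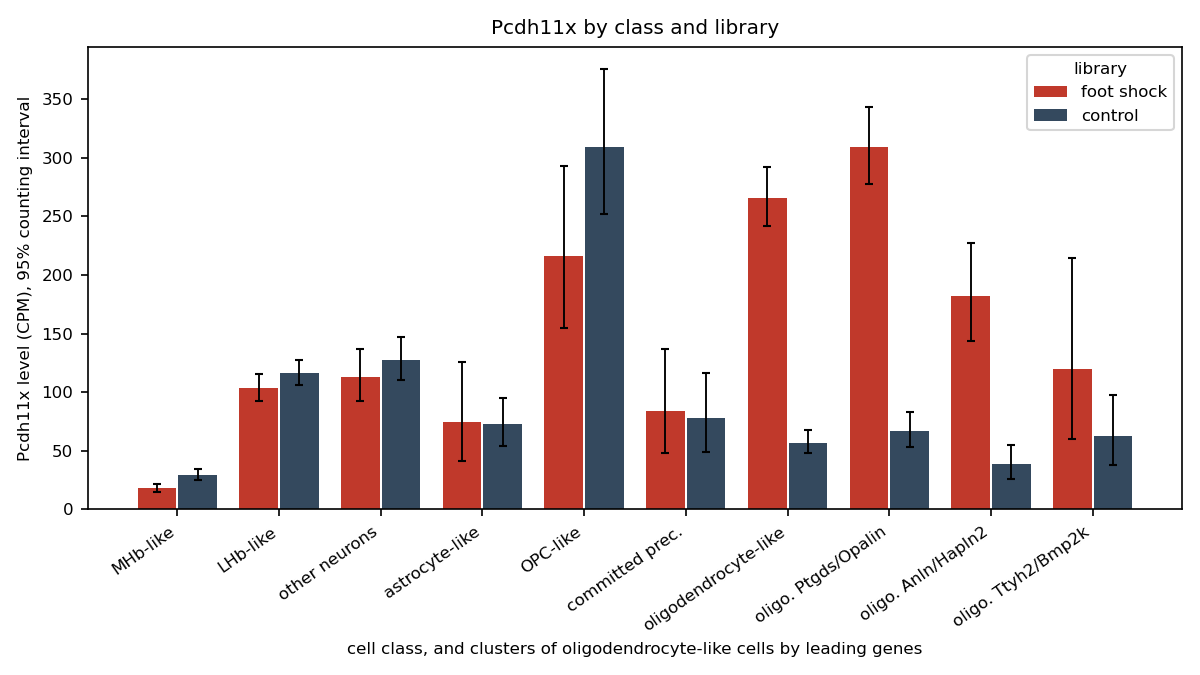
Level of Pcdh11x in CPM (bars start at 0, error bars are 95% counting intervals) in 7 cell classes and in the 3 clusters of oligodendrocyte-like cells, foot shock in red left of control in dark blue. The foot shock bar is the taller one by more than its interval in oligodendrocyte-like cells and in their Ptgds/Opalin and Anln/Hapln2 clusters, and the bars of the remaining classes are close or lean towards control.

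The difference in Pcdh11x was found in 2 of 3 clusters of these cells. In the Ptgds/Opalin cluster the level was 309 CPM in foot shock and 67.1 CPM in control, a ratio of 4.61 (3.63 to 5.90), and in the Anln/Hapln2 cluster 182 and 38.4 CPM, a ratio of 4.74 (3.08 to 7.48). In the smaller Ttyh2/Bmp2k cluster it was 120.0 CPM in foot shock and 62.5 CPM in control, a ratio of 1.92 (0.826 to 4.25), from 11 and 19 UMIs. Whether the ratio differed between classes was not tested. Committed precursor-like cells had 84.3 CPM in foot shock and 77.7 CPM in control, astrocyte-like cells 74.9 and 72.6 CPM, oligodendrocyte precursor-like cells 216 and 309 CPM, a ratio of 0.698, and LHb-like neurons 104 and 116 CPM, a ratio of 0.891. Pou4f1-low neurons had 113 CPM in foot shock and 128 CPM in control, a ratio of 0.885. Thalamus-like neurons had 3 UMIs in foot shock and 26 in control, a ratio of 0.336 (0.0652 to 1.10), and MHb-like neurons are given below. Counts were too low to compare in mural-like cells, with 5 UMIs in foot shock and 1 in control. The same held for GABAergic neuron-like cells with 4 and 1, endothelial-like cells with 3 and 0 and microglia-like cells with 2 and 0. The 7 oligodendrocyte markers summed to 48000 CPM in foot shock and 46631 CPM in control, the 6 precursor markers to 170.3 and 118 CPM, and the 5 pan-neuronal markers to 405 and 333 CPM. None of the precursor or neuronal markers was at 0. Their part in the difference was not tested.

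Pcdh9, the leading member of these cells, stood at 446 CPM in foot shock and 629.6 CPM in control, a ratio of 0.709, under 1.5-fold. Pcdh15 stood at 13.1 CPM in foot shock and 27.0 CPM in control, a ratio of 0.486 (0.285 to 0.80), and Cdh20 at 19.7 CPM in foot shock and 30.4 CPM in control, a ratio of 0.648 (0.416 to 0.992). By cluster, the Cdh20 ratio was 0.976 (0.517 to 1.83) in Ptgds/Opalin, 0.483 (0.224 to 0.957) in Anln/Hapln2 and 0.474 (0.0105 to 3.69) in Ttyh2/Bmp2k cells. Among the partner genes in oligodendrocyte-like cells, 3 of 13 catenin and adaptor genes were lower past 1.5-fold with an interval without 1, beside 7.11% of all 9096 genes. The scaffold gene Magi2 stood at 80.7 CPM in foot shock and 185 CPM in control, a ratio of 0.436 (0.357 to 0.530), and Ctnna1 had the highest ratio, 1.30. Of 9 WAVE complex genes 2 were lower, with Abi2 at 33.5 CPM in foot shock and 54.9 CPM in control, a ratio of 0.609, and Wasf2 at the other end at 1.11. Of the superfamily genes Celsr2 was lower at 0.626 and Fat1 had a ratio of 1.43. Smchd1 was the 1 regulator that was lower, at 0.660, and Stag1 had a ratio of 1.25.

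In oligodendrocyte precursor-like cells, 107 in foot shock and 244 in control, 3 members were lower in foot shock. Pcdh9 stood at 168 CPM in foot shock and 389 CPM in control, a ratio of 0.433 (0.284 to 0.643), and 4 of 750 genes with at least 100 UMIs had a lower one. Pcdh15 stood at 374 CPM in foot shock and 572 CPM in control, a ratio of 0.653 (0.490 to 0.862), and Pcdh20 at 52.6 CPM in foot shock and 110.2 CPM in control, a ratio of 0.478 (0.211 to 0.982) from 10 UMIs in foot shock and 36 in control. Markers also differed between the libraries, in both directions. The 6 precursor markers were lower in foot shock, with sums of 4543 CPM in foot shock and 6569.6 CPM in control. Higher in foot shock were the 5 pan-neuronal markers, with sums of 4716 and 1999 CPM, and the 7 oligodendrocyte markers, with 1279 and 557 CPM. None of the precursor or pan-neuronal markers was at 0 in either library. The part of these markers in the member ratios was not tested.

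In LHb-like neurons Cdh13 was higher in foot shock, at 78.0 CPM in foot shock and 50.9 CPM in control, a ratio of 1.53 (1.26 to 1.86), and 75 of 8139 genes had a higher ratio. Among subclusters the ratio was 2.12 (1.46 to 3.10) in Chrm2/Sv2c cells, with 118 CPM in foot shock and 55.8 CPM in control. In the other 5 subclusters it ran from 0.968 to 1.42, with 1 inside each interval. Cdh12 stood at 12.5 CPM in foot shock and 18.9 CPM in control, a ratio of 0.660 (0.433 to 0.993), and Pcdhgc5 had 5 UMIs in foot shock and 20 in control. The leading gene Pcdh10 was under 1.5-fold in the class, at 0.830. Among subclusters its interval excluded 1 only in Cxcl13/Sod3 and Chrm2/Sv2c cells, both lower in foot shock. In Cxcl13/Sod3 cells Pcdh10 stood at 212 CPM in foot shock and 383 CPM in control, a ratio of 0.554 (0.432 to 0.706). Its ratio was 0.734 (0.644 to 0.835) in Chrm2/Sv2c cells. The ratio was 1.11 (0.989 to 1.26) in A230065H16Rik/Rph3a, 1.07 (0.807 to 1.41) in Pam/Insig1, 0.879 (0.745 to 1.04) in Peg10/Tmem255a and 0.479 (0.209 to 1.07) in Sst/Mctp1 cells. Pcdh17 in Chrm2/Sv2c cells stood at 553 CPM in foot shock and 367 CPM in control, a ratio of 1.51 (1.29 to 1.75), and in the other 5 subclusters the ratio ran from 0.951 to 1.25. Cdh22 in Chrm2/Sv2c cells stood at 38.9 CPM in foot shock and 81.2 CPM in control, a ratio of 0.479 (0.297 to 0.755), and elsewhere its ratio ran from 0.543 to 1.06 with 1 inside each interval. In LHb-like neurons the 7 MHb markers summed to 2419 CPM in foot shock and 1789 CPM in control with none at 0, and their part in the member ratios was not tested.

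In MHb-like neurons Pcdh11x stood at 18.2 CPM in foot shock and 29.5 CPM in control, a ratio of 0.617 (0.475 to 0.80), levels close to free RNA at 19.4 and 22.5 CPM. It was above free RNA in both libraries in Cck/Tac1 and Ascl4/Pam cells. In Cck/Tac1 cells it stood at 65.2 CPM in foot shock and 110.7 CPM in control, a ratio of 0.588 (0.385 to 0.891), and in Ascl4/Pam cells at 49.98 CPM in foot shock and 67.0 CPM in control, a ratio of 0.746 (0.317 to 1.63). Synpr/Slc5a7 cells had a ratio of 0.386 (0.198 to 0.721) and Syt15/Nppa cells one of 1.27 (0.665 to 2.44). Cdh7 stood at 10.4 CPM in foot shock and 15.6 CPM in control, a ratio of 0.666 (0.466 to 0.948), beside free RNA at 8.81 CPM in foot shock and 11.9 CPM in control. ENSMUSG00000023036 stood at 10.5 CPM in foot shock and 6.19 CPM in control, a ratio of 1.70 (1.09 to 2.72). In Syt15/Nppa cells Pcdh19 stood at 16.2 CPM in foot shock and 35.7 CPM in control, a ratio of 0.454 (0.268 to 0.748). In the other 5 MHb-like subclusters its ratio ran from 1.0004 to 4.35, from at most 12 UMIs in either library and with 1 inside each interval. In Pou4f1-low neurons Cdh7 stood at 41.6 CPM in foot shock and 71.6 CPM in control, a ratio of 0.580 (0.392 to 0.843), Pcdh9 at 155 CPM in foot shock and 232 CPM in control, a ratio of 0.665 (0.544 to 0.809), and Pcdhb14 had 7 UMIs in foot shock and 27 in control. Among their subclusters the Cdh7 ratio ran from 0.582 to 0.810, with 1 inside each interval. The Pcdh9 ratio was 0.639 (0.500 to 0.812) in Sema3c/Baiap2, 0.538 (0.328 to 0.848) in Ctxn3/Pdyn and 1.43 (0.756 to 2.66) in Cacna2d1/Ptn cells. The 7 MHb markers summed to 716 CPM in foot shock, with 1 marker at 0, and to 383 CPM in control in Pou4f1-low neurons. Their part in the member ratios was not tested. In microglia-like cells the 1 member measured, Pcdh17, had 18 UMIs in foot shock and 3 in control, 143 CPM in foot shock and 16.8 CPM in control, both below free RNA, where 18.1% of 2148 genes passed.

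Of the members counted, Pcdh11x in oligodendrocyte-like cells kept its call under all 13 alternatives tried and Pcdh9 in oligodendrocyte precursor-like cells under all 12. Cdh12 in LHb-like neurons kept it under 3 of 15, Pcdh9 in Pou4f1-low neurons under 5 of 14, Cdh7 in MHb-like neurons under 6 of 14, Pcdhb14 in Pou4f1-low neurons under 7 of 14 and Cdh20 in oligodendrocyte-like cells under 7 of 13. Pcdh15 and Pcdh20 in oligodendrocyte precursor-like cells each kept it under 8 of 12. The 12 alternatives for these cells leave out each library clustered on its own, where foot shock gave no such class, so their calls have no value there. Cdh13 in LHb-like neurons kept it under 12 of 15, with ratios from 1.498 to 1.57.

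Partner genes of habenula neurons were counted by the same rule, which 3.67% of 11748 genes passed in MHb-like and 4.24% of 11511 genes in LHb-like neurons. In MHb-like neurons 1 of 12 catenin and adaptor genes passed, Arvcf at 8.58 CPM in foot shock and 13.4 CPM in control, a ratio of 0.642 (0.434 to 0.944), with Ctnna2 at the other end at 1.17. The Arvcf levels lay close to free RNA, at 9.85 CPM in foot shock and 11.4 CPM in control. In LHb-like neurons none of the 5 lists had a gene past 1.5-fold with an interval without 1, and among the genes with at least 100 UMIs the ratios ran from 0.680 for Fat3 to 1.30 for Jup.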

How the data were processed

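Single-cell RNA was measured in 2 libraries of habenula cells, foot shock and control, each from 4 pooled mice. The deposited matrices hold raw UMI counts per gene and barcode, made by the authors with the Chromium Single Cell 3′ kit version 2, per the labels, and with Cell Ranger 2 on mm10, per the submitters' processing notes. The annotation release and the treatment of strand are not stated there. Each matrix lists 737280 barcodes, so cells were called here: at least 1000 UMIs, 500 to 6000 genes and at most 20% mitochondrial UMIs. This left 4840 foot shock and 5129 control cells, of which Scrublet (in scanpy 1.11.5, expected rate 0.08) marked 80 (1.65%) and 242 (4.72%) as doublets, which were removed. Free RNA was the sum of barcodes with 10 to 100 UMIs, 3857651 UMIs in foot shock and 3606217 in control.

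Cells of both libraries were clustered together without cadherin, partner, mitochondrial, ribosomal protein and hemoglobin genes, on 2000 variable genes, 30 principal components and 15 neighbours (Leiden resolution 1, leidenalg 0.10.2), first all cells and then neurons. Classes were named from marker lists. A marker was held by a cluster if found in 10% of its cells and at 33.3% of the highest cluster's level. The limit of Pou4f1 at 1 per 10000 UMIs for a habenula name, and a group of 88 foot shock and 43 control cells with markers of several classes that was left out, were set after the clusters were seen. The Pou4f1-low Cacna2d1/Ptn subcluster lay just under that limit, at 0.978, with a median of 1299 UMIs per cell. It held 3 MHb and 4 LHb markers. Counting it as LHb-like gave 21 members apart between MHb-like and LHb-like neurons, the 18 reported among them. Among the 10 leading genes of a named non-neuronal cluster or neuron subcluster, markers of other classes never outnumbered those of its own. Both counts were 0 in most neuron subclusters and in some glial clusters, Ttyh2/Bmp2k among them, so there they do not bear on the name. Neuron clusters of the pass over all cells, which were clustered again, held up to 3 markers of other lists beside 0 of their own.

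Levels are CPM with exact Poisson intervals, those of ratios come from the exact conditional binomial and those of shares are Clopper-Pearson (scipy 1.17.1, 95%). They cover counting error only, and a count of 0 allows up to 3 counts. A gene entered a comparison if its UMIs in the compared classes summed to 20 or more over the libraries. Ratios were counted past 2-fold in both libraries between MHb-like and LHb-like neurons, and past 1.5-fold with an interval without 1 between foot shock and control. Named were the 5 members with the most UMIs in a class, members leading the next class by 2-fold, members past the fold, and of each partner list the genes with the highest and lowest ratio among those with at least 100 UMIs. A result of 1 partner list is not reported here. For partner lists, the count and the median stand in place of a test. Members of vascular and epithelial classes, and subcluster values within a class, were named after their values were seen. The ratio and interval code was tested on simulated data. Alternatives were other cell filters, clusterings, scalings (among them TMM factors of edgeR 4.0.16 in R 4.3.3) and thresholds. Gene positions are from GENCODE vM21 (mm10), in which 92 of the 93 identifiers were found, and promoters from RefSeq. The members and lists were chosen with earlier results of these data known.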

Additional observations from a re-analysis of the deposited data

Results flagged for a closer look

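Pcdh11x stood out for moving in opposite directions in 2 cell classes. Its foot shock over control ratio was 4.66 (3.84 to 5.69) in oligodendrocyte-like cells and 0.617 (0.475 to 0.80) in MHb-like neurons, where its level was close to free RNA. The difference between the classes was not tested, since each group has 1 library. Over 13 alternatives the ratio in oligodendrocyte-like cells ran from 4.35 to 4.97.

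Cdh1 stood at 51.9 CPM (40.0 to 66.3) in keratin epithelial-like cells of the foot shock library, a class with 503 foot shock and 0 control cells that enters no comparison. Free RNA of that library held 0.778 CPM of Cdh1.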

How the results depend on the processing

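Under other settings, 126 recounts of members stayed within 1.5 times of the reported count and 25 did not. With 1 UMI per library in place of 20, the members detected numbered 62 in MHb-like neurons, 60 in LHb-like neurons, 27 in astrocyte-like, 38 in oligodendrocyte precursor-like and 40 in oligodendrocyte-like cells, against 23, 29, 5, 8 and 11. In astrocyte-like cells the 5 became 12 with cells from 500 UMIs and 3 with a mitochondrial limit of 10%. A 1.5-fold limit gave 29 members apart between MHb-like and LHb-like neurons in place of 18. TMM factors moved all log2 ratios between these classes by 0.17 in foot shock and 0.15 in control, and 16 of the 18 remained. Of foot shock and control, the 3 members reported in MHb-like neurons became 1 with cells from 500 UMIs, 5 with means over cells and 0 at 2-fold. The 3 in LHb-like neurons became 1 with doublets kept, at Leiden resolution 1.5, at 2-fold and without the 3 shallow subclusters. The 3 in Pou4f1-low neurons became 5 with cells from 500 UMIs or at Leiden resolution 0.6, and 1 with a mitochondrial limit of 10%, scaled without mitochondrial, ribosomal, hemoglobin and the 50 highest genes, at 2-fold, or without shared barcodes. The 3 in oligodendrocyte precursor-like cells became 1 with cells from 500 UMIs, with doublets kept or with means over cells, and the 0 in astrocyte-like cells became 2 with cells from 500 UMIs. The causes were not tested. Among named ratios between the habenula classes 524 values still passed and 16 did not, between the libraries 142 did and 62 did not, and none turned round. Of the named levels, 418 values stayed within the counting interval of the reported one and 102 did not. These include all 60 levels scaled without mitochondrial, ribosomal, hemoglobin and the 50 highest genes, which shrinks the total and gave 1.34 to 1.999 times the reported level, 13 of 60 with cells from 500 UMIs and 12 of 60 with means over cells. With each library clustered on its own, foot shock gave no astrocyte-like or oligodendrocyte precursor-like class, so these have no value. No paired analysis was possible because each group has 1 library and no result comes from a test.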
